A study of Homo sapiens with 12 samples.

Results

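DEAD and DEAH box RNA helicases are enzymes that unwind or remodel RNA with the energy of ATP, and they are named after a short amino acid motif of their ATP-binding core. Different members act in splicing, ribosome assembly, export, translation, storage and decay of messenger RNA, so that 1 family touches most steps between transcription and protein synthesis. In myeloid leukaemia the family is known for DDX41, which is mutated in familial myeloid neoplasms, and for DDX10, a fusion partner of NUP98. The results below describe N6-methyladenosine (m6A), a methyl mark on adenosines of messenger RNA, on the transcripts of these genes in cells in which METTL16, an RNA methyltransferase, was knocked out.

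The genes were chosen by name, as those whose listed name begins with DDX or DHX followed by a digit, and 2 further names of this pattern are not analysed here. This gave 55 genes, 40 with DDX and 15 with DHX names, of which 50 are protein coding, 3 are antisense RNAs and 2 are pseudogenes. EIF4A helicases belong to the same family but carry other names and are not among the 55. The cells were NOMO-1, a human acute myeloid leukaemia line, and every culture went through puromycin selection after infection with a lentivirus for 1 guide. METTL16 was knocked out with guide sgMETTL16-1 or guide sgMETTL16-2, and control cells carried guide sgNS. The cultures were selected populations, and the level of METTL16 left in them is not given by the tables. Poly(A) RNA was sequenced after m6A immunoprecipitation (IP) and before it (input), with 2 libraries of each kind for each of the 3 guides, 12 libraries in all. All 8 monocytic and myeloid marker genes checked were listed in each of the 4 tables.

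The values come from 4 tables of comparisons that the authors deposited, so that each combination of a knockout guide and a replicate number has its own. A table lists stretches of transcripts, called windows here, and for each one how many fold IP exceeded input and the log2 fold change for the knockout guide against sgNS. The 55 genes held 286 of 79372 windows for sgMETTL16-1 replicate 1, 251 of 71406 for replicate 2, 257 of 75788 for sgMETTL16-2 replicate 1 and 241 of 70002 for replicate 2. Of the 55 genes 51 were listed in all 4 tables, 3 in 3 tables and 1 in 1 table. A window is called enriched when the authors' false discovery rate (FDR) of IP over input was under 0.05, and called higher or lower when their FDR of the difference was under 0.05. The tables do not state the direction of that log2 fold change. Negative values were taken to mean less m6A after knockout, and every direction below would turn under the opposite convention. The tables give no value per library, so the depth is unknown and no value has a replicate error of its own. The tables do not say from which sgNS libraries they were made, so tables with the same replicate number may share their controls. The fold enrichment belongs to a table as a whole, which may mix knockout and sgNS libraries. An enrichment given below with a guide is therefore that of the guide's table, and is not known to come from knockout cells alone. Positions are on GRCh38. Whether the replicate numbers stand for separate cultures is not stated either.

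m6A enrichment was found on 39 of the 55 genes in at least 1 table, and on 24 of them in all 4 tables, against 44.5% and 19.3% of all 16417 genes. The number of windows per gene was not matched in that comparison, nor in the counts of genes by list below. Of the 39, 38 were protein coding genes. Enriched windows numbered 42, 55, 48 and 55 in the 4 tables in the order given above, on 31, 31, 32 and 34 genes. They made up 14.7% of the helicase windows for sgMETTL16-1 replicate 1, against 8.1% of all windows, and 21.9% against 11.9% for replicate 2. For sgMETTL16-2 the shares were 18.7% of helicase windows against 10.2% of all windows in replicate 1 and 22.8% against 12.3% in replicate 2. Expression level and read depth were not matched between the helicases and the other genes, and their part in this difference was not tested. Among DDX names the enriched share ran from 17.6% to 25.1% over the tables, and among DHX names from 8.6% to 19%. The size of the enrichment was ordinary, with a median fold enrichment in enriched helicase windows of 1.65, 1.88, 1.83 and 1.74, against 1.78, 1.92, 1.88 and 1.89 in all enriched windows.

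**Figure D1:**
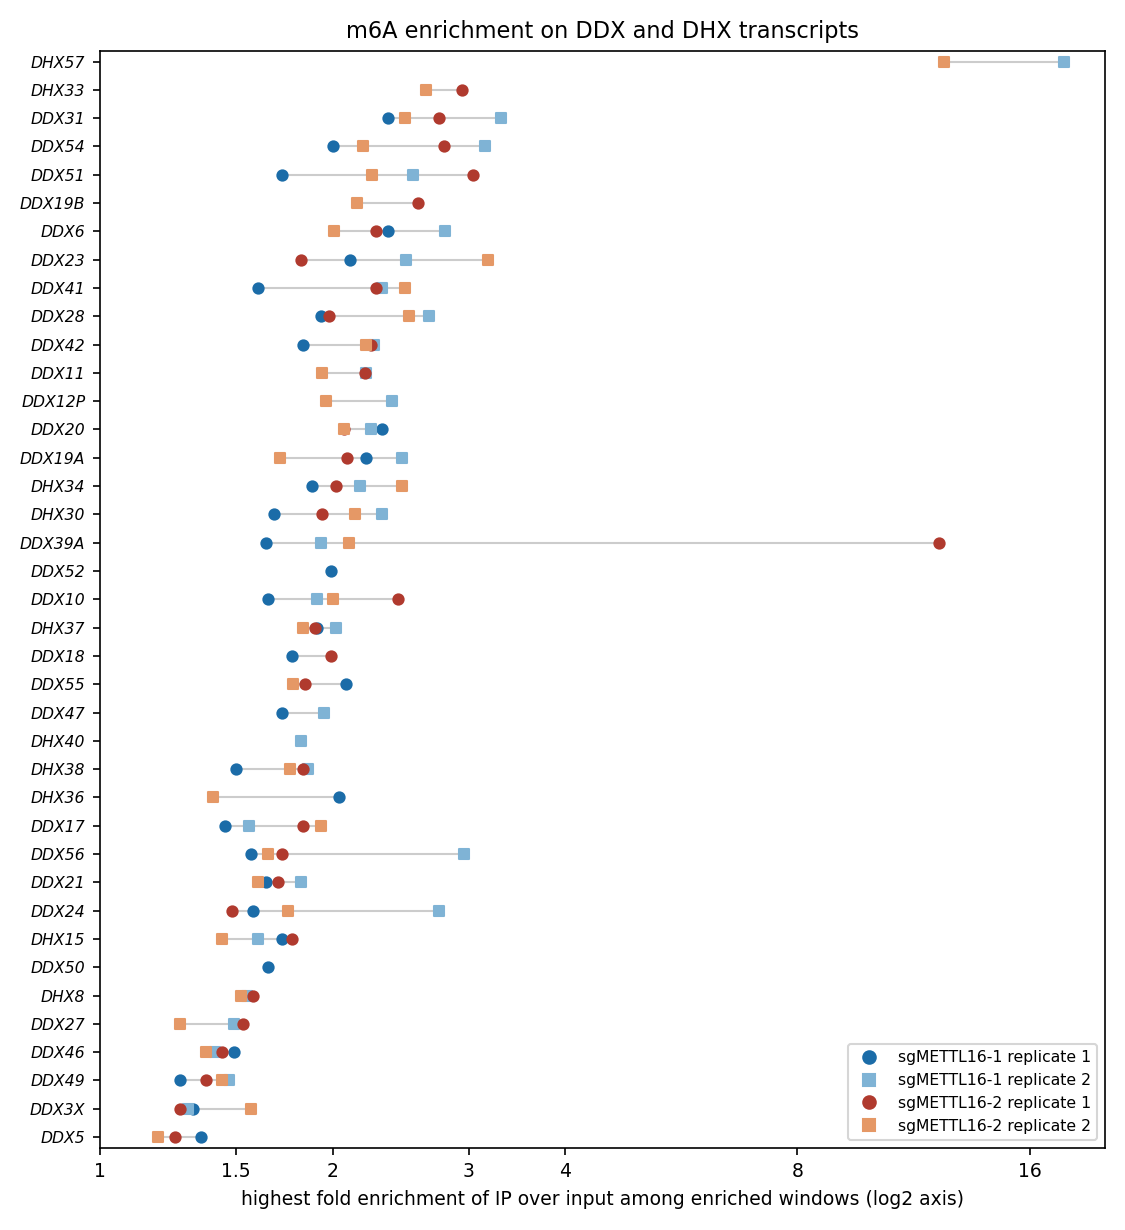
Highest fold enrichment of IP over input among the enriched windows of each of the 39 DDX and DHX genes that had one, on a log2 axis, with 1 point per table and a line over the range; genes are ordered by their median. DDX5 lies lowest, at 1.35, 1.25 and 1.19, DHX57 lies far to the right of all other genes, at 17.7 and 12.4, and so does 1 point of DDX39A, at 12.2.

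Among helicases of splicing, 11 of the 12 genes on the list had windows and 10 had an enriched window in at least 1 table, against 44.5% of all genes. DHX38, which remodels the spliceosome for the second step of splicing, had 13 enriched windows over the 4 tables, as many as DDX24 and more than any other of the 55 genes. Such counts are sums over the tables, so the same stretch can count once in each table. Its window beginning at 72096251 on chromosome 16, about 2404 bases inside the gene, was enriched 1.5-fold and 1.77-fold per the authors' deposited tables of sgMETTL16-1. The matching windows of sgMETTL16-2 were enriched 1.83-fold and 1.61-fold per the authors' deposited tables. DDX23, which releases U1 from the 5′ splice site, carried the highest mean enrichment of all windows that were matched and enriched in all 4 tables, at the 3′ end of its gene. That window, chromosome 12, 48829756 to 48830685 in replicate 2 of sgMETTL16-2, was enriched 2.11-fold and 2.49-fold with sgMETTL16-1 and 1.82-fold and 3.18-fold with sgMETTL16-2 per the authors' deposited tables. DDX41 and DDX17, a paralog of DDX5 that acts in splicing and transcription, had 9 enriched windows each, summed over the 4 tables. DDX41 was enriched most at its start, by up to 2.48-fold per the authors' deposited tables, and DDX17 by up to 1.93-fold.

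All 16 genes on the list for ribosome biogenesis had an enriched window in at least 1 table, against 44.5% of all genes, with windows per gene not matched. DDX24, a nucleolar helicase, had 13 enriched windows summed over the tables, with 2, 4, 3 and 4 in the single tables. They were spread from its 5′ part to a window that ended 2635 bases before its 3′ end. DDX54 had 10 in the same sum, with 2, 3, 2 and 3 in the single tables. Its enrichment reached 3.15-fold in a window about 1311 bases before its 3′ end per the authors' deposited table of sgMETTL16-1 replicate 2. Windows of CFAP73, a gene on the opposite strand, share bases with that window, and whether reads were counted by strand is not stated. DDX51 was enriched within 193 bases of its start in all 4 tables, by 1.72-fold and 1.88-fold with sgMETTL16-1 and by 3.04-fold and 2.18-fold with sgMETTL16-2 per the authors' deposited tables. Replicate 2 of both guides held a further DDX51 window, 5038 bases inside the gene, at 2.54-fold and 2.25-fold per the authors' deposited tables. DDX31 had 1 enriched window in each table, always ending at base 132595086 on chromosome 9, with 2.36-fold, 3.31-fold, 2.75-fold and 2.48-fold enrichment per the authors' deposited tables. DDX31 was thus among the more strongly enriched members in every table. DDX21, which acts in ribosomal RNA transcription and processing, was enriched 1.64-fold, 1.82-fold, 1.70-fold and 1.60-fold about 2086 to 2146 bases before its 3′ end per the authors' deposited tables.

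Of the 12 genes listed for translation, storage, decay and export, 9 had an enriched window in at least 1 table, against 44.5% of all genes. DDX6, a helicase of P-bodies and of messenger RNA repression, was enriched 2.36-fold and 2.80-fold with sgMETTL16-1 and 2.28-fold and 2.01-fold with sgMETTL16-2 per the authors' deposited tables. These DDX6 windows lie on chromosome 11 around 118751714 to 118751954, some 3802 to 3951 bases before the annotated 3′ end. DDX19A, an export helicase of the nuclear pore, was enriched in a window that begins at base 70371976 on chromosome 16 in every table, by 2.21-fold, 2.46-fold, 2.06-fold and 1.71-fold per the authors' deposited tables. Its close paralog DDX19B was enriched in both tables of sgMETTL16-2 and in neither of sgMETTL16-1, and reads of the 2 paralogs may be split between them. DDX20, part of the SMN complex that assembles small nuclear ribonucleoproteins, was enriched up to 2.32-fold, and DDX3X, which unwinds structured leaders during translation initiation, up to 1.57-fold per the authors' deposited tables. DDX39A, an export helicase, had a 3′ window at 1.93-fold in sgMETTL16-1 replicate 2, 12.2-fold in sgMETTL16-2 replicate 1 and 2.10-fold in sgMETTL16-2 replicate 2 per the authors' deposited tables. The 12.2-fold value thus stood apart from the other tables of that window.

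Both mitochondrial members, DDX28 and DHX30, which act in assembly of the mitochondrial ribosome, were enriched in all 4 tables. DDX28 had 1.93-fold and 2.57-fold enrichment with sgMETTL16-1 and 1.98-fold and 2.51-fold with sgMETTL16-2 per the authors' deposited tables. The matched DHX30 windows had 1.68-fold and 2.32-fold with sgMETTL16-1 and 1.94-fold and 2.14-fold with sgMETTL16-2 per the authors' deposited tables. None of the 3 antiviral members, DHX58, DDX60 and DDX60L, had an enriched window in any table, although each was listed in all 4. DHX9, DHX29, DHX32, DHX35, DDX1, DDX4, DDX43 and DDX59 had none either, and nor did the antisense RNAs. DDX11, a DNA helicase of sister chromatid cohesion, had 6 enriched windows in 3 tables and its copy DDX12P 3 in 2 tables, and reads of these near copies may have been split between them. DHX57 had the highest fold enrichment of the 55 genes, 17.7-fold with sgMETTL16-1 and 12.4-fold with sgMETTL16-2 per the authors' deposited tables of replicate 2. Both values belong to 1 window of 211 bases, chromosome 2, 38861429 to 38861639, whose FDR of IP over input was 0.0011 and 0.0219 per the authors' deposited tables, and which was not enriched in the replicate 1 tables.

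Enriched helicase windows lay along the whole gene. Within 1000 bases of the annotated 3′ end lay 33.3%, 27.3%, 27.1% and 21.8% of them in the 4 tables, against 34.9%, 30.7%, 32.5% and 30.5% of all enriched windows. Within 1000 bases of the 5′ end the shares were 11.9%, 16.4%, 16.7% and 20%, against 14.1%, 15.8%, 17.0% and 17.1%. Windows of the helicases more often had 2 or more blocks, as a window has that crosses an intron, with 39.7% to 44.1% of all their windows against 27.7% to 29.8% over all genes. The median length of enriched windows was 388 to 418 bases for the helicases in the 4 tables and 388 to 418 bases over all genes.

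**Figure D2:**
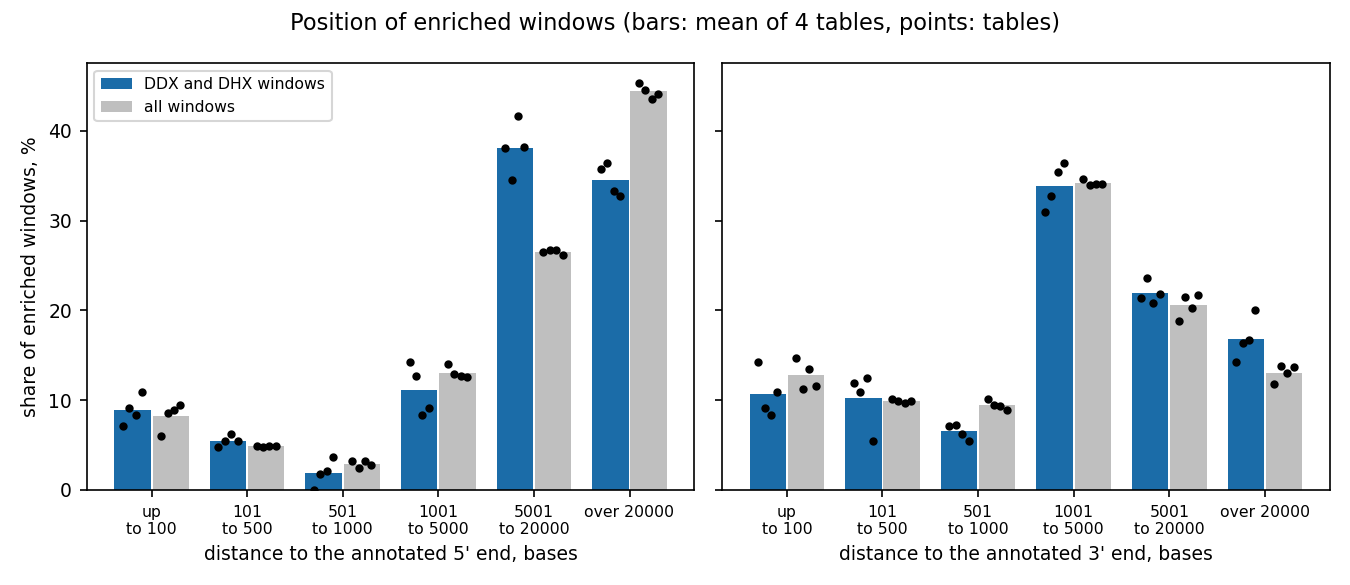
Share of enriched windows (%) by distance in genomic bases from the window to the annotated 5′ end (left) and 3′ end (right) of its gene, for DDX and DHX windows and for all windows; bars are means of the 4 tables and points are the tables. In the next to last class from the 5′ end the helicases have 38.1%, 34.5%, 41.7% and 38.2% of their windows, against 26.5%, 26.7%, 26.7% and 26.2% of all windows.

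For 7 genes an enriched window of at least 1 table covered at least 25 of the first 50 bases of the transcript, as placed by RefSeq in GRCh38.p14. They were DDX23, DDX24, DDX39A, DDX41, DDX47, DDX51 and DHX34. For DDX24 this held only in sgMETTL16-2 replicate 1, for DHX34 only in sgMETTL16-2 replicate 2 and for DDX47 only in sgMETTL16-1 replicate 2. For DDX39A it held only in the replicate 2 tables, and for DDX51 only with sgMETTL16-2. Windows of sgMETTL16-2 over the DDX47 start were not enriched. Methylation by the METTL3 complex takes place at an A before C, most often after G or A, so 4 motifs were searched, which are GGAC and AGAC, followed by the motif GAAC and lastly AAAC, in these starts, on the transcript strand and then on either strand. Of the 7 starts 4 held at least 1 of the motifs on the transcript strand, against 48.9% of the 27305 starts in the RefSeq table, and all 7 did on either strand, against 76% of the table. Their sites are printed because they are the only motif matches in the enriched starts on that strand, with the motif in capitals and up to 10 bases on each side, read 5′ to 3′ on the transcript strand.
DHX34, chr19:47349315-47349335, plus strand: gctcttgGGACcggaagttaa
DDX47, chr12:12813346-12813367, plus strand: acttccggAGACctcacacaag
DDX47, chr12:12813373-12813395, plus strand: ggcacccgagGAACacgattctc
DDX41, chr5:177516920-177516943, minus strand: ggaggagtcgGAACccgaacggaa
DDX41, chr5:177516914-177516937, minus strand: gtcggaacccGAACggaaggtagg
DDX23, chr12:48852135-48852158, minus strand: cgcgaccaggAAACgggaaagatg
The DDX41 lines overlap, because its motifs follow each other. The 50 bases of a start were taken from the genome, with introns not removed. Windows over the DDX41 start covered 43 of its 50 bases. The second DDX41 line runs past those bases, and its end may be intron. DDX41 was enriched over this start by 2.32-fold in sgMETTL16-1 replicate 2 and by 2.28-fold and 2.48-fold with sgMETTL16-2 per the authors' deposited tables. In sgMETTL16-1 replicate 1 the DDX41 start was covered but not enriched, at 1.48-fold (FDR of IP over input = 0.187). DHX34, a factor of nonsense-mediated decay, was enriched by 2.46-fold in replicate 2 of sgMETTL16-2, in a window of 899 bases. A match is a description and not a methylated base. The motif TACAGAGAA, the DNA form of the sequence that METTL16 methylates in MAT2A and U6 RNA, was in none of the 7 starts on either strand. The 300-base RefSeq promoter windows hold 250 bases before the transcript start, which are not part of that transcript. In these windows the motif was found on either strand in 2 of the 47 helicase genes with an entry, against 0.33% of all. It was in no helicase gene on the transcript strand, so these matches say nothing about sites in helicase RNA.

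Few helicase windows were called after knockout of METTL16. Of all helicase windows in the tables, 14 on 11 genes were called, 8 lower and 6 higher in the knockout. For sgMETTL16-1 replicate 1 there was 1 lower call, where 0.281% of all windows were called lower, and no higher call, where 0.0743% of all windows were (0.355% in either direction). Replicate 2 of that guide had 1 lower call, against 0.167% of all windows, and 2 higher calls, against 0.583% (0.749% in either direction). For sgMETTL16-2 replicate 1 there were 6 lower calls, against 0.965% of all windows, and 2 higher calls, against 0.875% (1.84% in either direction). Replicate 2 of sgMETTL16-2 had 0 lower calls, against 0.149% of all windows, and 2 higher calls, against 0.586% (0.734% in either direction). As shares of the helicase windows the calls were 0.35% and 1.2% with sgMETTL16-1 and 3.11% and 0.83% with sgMETTL16-2. Among enriched windows alone the helicases were called in 2.38%, 5.45%, 8.33% and 3.64%, against 3.59%, 5.41%, 11.8% and 5.22% of all enriched windows, so the share of calls was near the background. At an unadjusted p under 0.05 stood 31, 31, 32 and 22 helicase windows, which is 10.8%, 12.4%, 12.5% and 9.13% of them, against 4.85%, 5.81%, 8.2% and 6.15% of all windows. The helicases also had more enriched windows, and the part of that in these shares was not tested. No helicase window was called in both tables of a guide, and none in opposite directions, by the authors' FDR; the tool behind that FDR is not given in the sources used here. At an unadjusted p under 0.05 in both tables of the guide, there were 3 higher windows with sgMETTL16-1 and 3 with sgMETTL16-2, and 0 lower windows with either, of 84 and 87 helicase windows matched between the replicates. Over all matched windows the higher share was 0.729% with sgMETTL16-1 and 3.36% with sgMETTL16-2, and the lower share 0.31% and 0.566%, so a count of 3 is near the background with sgMETTL16-2 and too small to read with sgMETTL16-1.

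**Figure D3:**
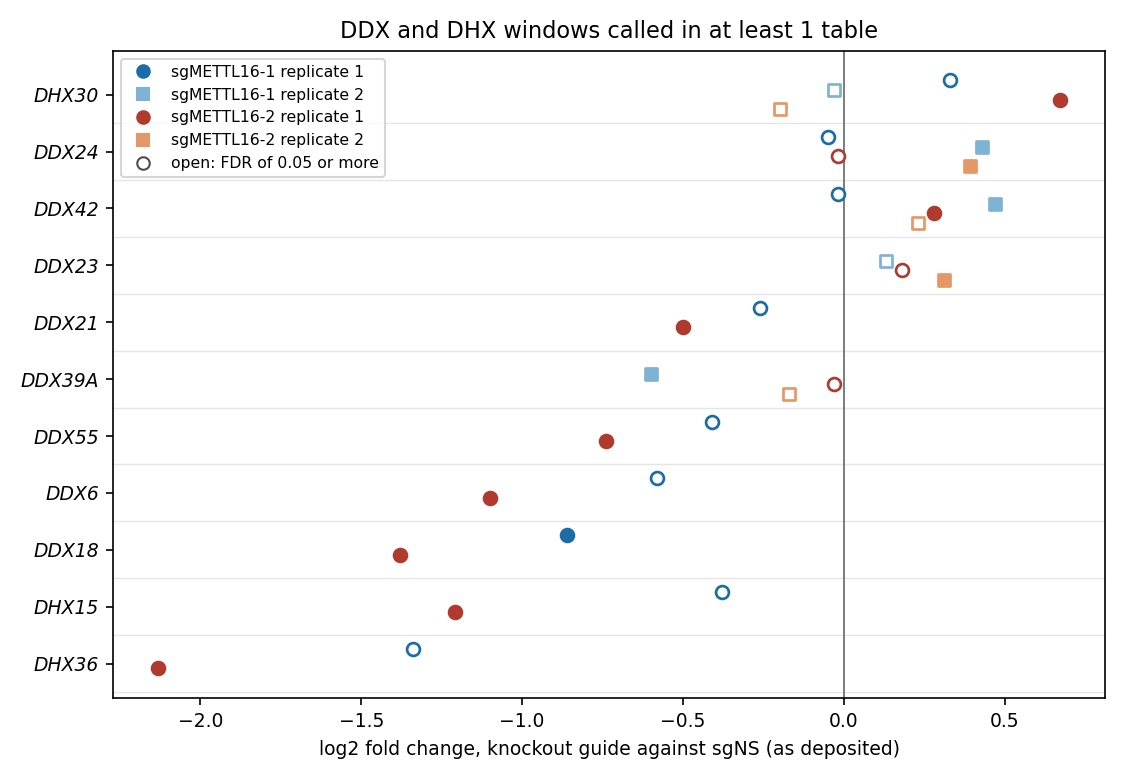
Deposited log2 fold change (knockout guide against sgNS) of the 11 helicase windows called in at least 1 table, with 1 point for each table that has a matching window; filled points have an FDR under 0.05 and open points do not. Filled points of DDX18 lie at -0.86 and -1.38 in the replicate 1 tables, those of DDX24 at 0.43 and 0.39 in the replicate 2 tables.

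Called ribosome biogenesis helicases went both ways. DDX18, a nucleolar helicase, was lower in a window of 3 blocks, chromosome 2, 117817678 to 117821235, about 2987 bases inside the gene. Its log2 fold change was -0.86 (FDR = 0.000851) with sgMETTL16-1 and -1.38 (FDR = 1.07e-08) with sgMETTL16-2 per the authors' deposited tables of replicate 1. No window of the replicate 2 tables overlapped it, so the call has no second number to be set beside. The window was enriched in the replicate 1 table of sgMETTL16-1 and not in that of sgMETTL16-2. DDX24 was higher in a single block near its 5′ end, chromosome 14, 94079216 to 94079692. There the log2 fold change was 0.43 (FDR = 0.000692) with sgMETTL16-1 and 0.39 (FDR = 0.0457) with sgMETTL16-2 per the authors' deposited tables of replicate 2. Replicate 1 gave -0.05 and -0.02 for the same window per the authors' deposited tables, so the calls of DDX24 came from replicate 2 with both guides and those of DDX18 from replicate 1. The DDX24 window was enriched in all 4 tables, by 1.48-fold to 1.75-fold per the authors' deposited tables. Its other enriched windows were not called. The one in the middle of the gene had -0.01, 0.22, 0.06 and -0.08 per the authors' deposited tables. Nearest the 3′ end the values were -0.20 in sgMETTL16-1 replicate 2, and 0.18 and -0.28 with sgMETTL16-2 per the authors' deposited tables. A further window, beginning at 94062188, had -0.17 and -0.08 per the authors' deposited tables of replicate 2.

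DDX21 was called lower in 1 table. The window begins 102 bases inside the gene (chromosome 10, 68956272 to 68962104) and had a log2 fold change of -0.50 (FDR = 0.0437) with sgMETTL16-2 replicate 1, and -0.26 with sgMETTL16-1 replicate 1, per the authors' deposited tables. Short windows that overlap it in replicate 2 had 0.24 and 0.41 with sgMETTL16-1 and 0.47 and 0.22 with sgMETTL16-2 per the authors' deposited tables, on the other side of 0. The 3′ window of DDX21, which was enriched in all 4 tables, was not called, at -0.06 and 0.36 with sgMETTL16-1 and 0.12 and 0.32 with sgMETTL16-2 per the authors' deposited tables. DDX55 was lower near its 3′ end, chromosome 12, 123619455 to 123620229, with -0.74 (FDR = 0.0302) for sgMETTL16-2 replicate 1 and -0.41 for sgMETTL16-1 replicate 1 per the authors' deposited tables. Shorter windows that overlap it in replicate 2 had -0.30 and 0.33 per the authors' deposited tables. Its direction was therefore not the same in every table.

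Among spliceosome helicases DDX42, which associates with the U2 complex, was higher in a window of 3 blocks that ends 808 bases before its 3′ end. In this window, chromosome 17, 63815571 to 63818509, the log2 fold change was -0.02 and 0.47 (FDR = 1.26e-06) with sgMETTL16-1 and 0.28 (FDR = 0.0302) and 0.23 (FDR = 0.133) with sgMETTL16-2 per the authors' deposited tables. DDX42 was thus called with both guides but in different replicates, and it was enriched in all 4 tables, by 1.83-fold to 2.26-fold. DDX23 was higher in a window of 7 blocks that reaches its 5′ end, at 0.31 (FDR = 0.0309) with sgMETTL16-2 replicate 2, while replicate 1 of that guide gave 0.18 and replicate 2 of sgMETTL16-1 gave 0.13 per the authors' deposited tables. That replicate 1 window of sgMETTL16-2 ends at 48845633, short of the 5′ end. The replicate 1 windows that reach the DDX23 start, 48845753 to 48852174, had negative values, -0.75 (FDR = 0.655) with sgMETTL16-1 and -0.88 (FDR = 0.272) with sgMETTL16-2, per the authors' deposited tables. Further inside the gene, windows that overlap the called one in replicate 1 of sgMETTL16-1 had -0.26 and -0.27 per the authors' deposited table. The direction at DDX23 therefore differed between tables and between stretches of the called window. LOC105369755 of RefSeq overlaps the DDX23 region. The strongly enriched 3′ window of DDX23 was not called, at 0.00 and 0.05 with sgMETTL16-1 and 0.13 and -0.03 with sgMETTL16-2 per the authors' deposited tables. DHX15, which takes the spliceosome apart, was lower at its 3′ end, chromosome 4, 24527704 to 24527972, at -1.21 (FDR = 0.00126) with sgMETTL16-2 replicate 1 and -0.38 with sgMETTL16-1 replicate 1 per the authors' deposited tables. A shorter window in sgMETTL16-1 replicate 2 shared 44.6% of its bases, at -0.15 (FDR = 0.659), and was not enriched. The window of sgMETTL16-2 replicate 2 shared only 0.372% of the called bases, so it says little about that call. The enriched window of DHX15 at its 5′ end was not called, at -0.21 and 0.35 with sgMETTL16-1 and -0.21 and 0.27 with sgMETTL16-2 per the authors' deposited tables. DHX38 had no call in any of its windows.

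The list for translation, storage, decay and export had 3 calls, which were lower in each case and are too few to read a direction. They made up 0%, 1.72%, 3.51% and 0% of its windows in the 4 tables. Of all windows 0.355%, 0.749%, 1.84% and 0.734% were called. DHX36, which resolves G-quadruplex RNA, had the largest fold change of the 14 calls, -2.13 (FDR = 0.0324) with sgMETTL16-2 replicate 1, in a window of 151 bases on chromosome 3, 154300666 to 154301106, per the authors' deposited table. With sgMETTL16-1 replicate 1 that region had -1.34 (FDR = 0.254) per the authors' deposited table, and it was enriched in neither. No DHX36 window of the replicate 2 tables overlapped the called one. DDX6 was lower in a window in the middle of the gene, chromosome 11, 118765210 to 118768346, at -1.10 (FDR = 0.0316) with sgMETTL16-2 replicate 1 and -0.58 with sgMETTL16-1 replicate 1 per the authors' deposited tables. That window was not enriched either. Short replicate 2 windows that share 22.2% of its bases had -0.45 with sgMETTL16-1 and -0.30 with sgMETTL16-2, and were not called. The enriched 3′ window of DDX6 had negative values throughout, -0.24 and -0.99 with sgMETTL16-1 and -0.50 and -0.82 with sgMETTL16-2 per the authors' deposited tables, and none of them was called, with FDR between 0.469 and 0.655. DDX39A was lower in a 3′ window of 119 bases, chromosome 19, 14408828 to 14408946, at -0.60 (FDR = 0.0204) with sgMETTL16-1 replicate 2 per the authors' deposited table. The longer windows that match it with sgMETTL16-2 had -0.03 and -0.17, and the window that overlaps it in sgMETTL16-1 replicate 1 had 0.33 (FDR = 0.0513) per the authors' deposited tables, so the 2 replicates of sgMETTL16-1 pointed opposite ways. Of the mitochondrial members DHX30 was called, higher with sgMETTL16-2 replicate 1 at 0.67 (FDR = 0.0038), in a window of 687 bases. Matched windows gave 0.33 and -0.03 with sgMETTL16-1 and -0.20 with sgMETTL16-2 replicate 2 per the authors' deposited tables. The replicate 2 windows were longer, with 4 blocks and 1134 and 1044 bases, so they are not the same stretch as the called one.

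All 6 higher calls were in enriched windows, and 4 of the 8 lower calls were. The 4 lower calls outside enrichment were those of DDX18, DHX36, DDX21 and DDX6 with sgMETTL16-2 replicate 1. The deposited p appears one-sided. With a two-sided p the calls of DDX18, DHX15, DHX30, and of DDX24 and DDX42 with sgMETTL16-1 stayed under an FDR of 0.05, and those of DDX39A, DHX36, DDX21, DDX6, DDX55 and DDX23, and of DDX24 and DDX42 with sgMETTL16-2, did not. A further alternative changed 2 choices together: the median of all enriched windows was subtracted from each table, and the p was two-sided. Compared with the two-sided p alone, it ended the calls of DHX30 and of DDX24 with sgMETTL16-1 as well. It brought the calls of DDX39A, DDX21, DDX6 and DDX55 back under an FDR of 0.05. The overlapping DDX39A window of sgMETTL16-1 replicate 1 was then called higher, at 0.37 (FDR = 0.048). The called DDX39A window of replicate 2 was lower, at -0.74 (FDR = 0.00582), so the replicates of that guide had opposite calls. DHX36 lay further from 0 under this alternative, at -2.25, with an FDR of 0.052.

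Over all helicase windows the median log2 fold change was -0.02 and 0.08 with sgMETTL16-1 and -0.03 and 0.00 with sgMETTL16-2, against 0.00 over all windows in each table. In enriched helicase windows the median was -0.06 and 0.26 with sgMETTL16-1 and 0.07 and 0.20 with sgMETTL16-2, against -0.04 and 0.13, and 0.12 and 0.14, in all enriched windows. In both guides the median of the enriched helicase windows was higher in replicate 2 than in replicate 1. Of the enriched helicase windows 28.6% lay above 0 in replicate 1 of sgMETTL16-1 and 74.5% in replicate 2, against 44.0% and 67.2% of all enriched windows. With sgMETTL16-2 the shares were 56.2% and 67.3%, against 63.3% and 67.4%. By list, enriched windows of ribosome biogenesis helicases had medians of -0.12 and 0.28 with sgMETTL16-1 and 0.12 and 0.15 with sgMETTL16-2, and those of spliceosome helicases -0.03 and 0.18, and 0.04 and 0.23. The enriched windows of the translation, storage and export list had 0.03 and 0.14, and -0.08 and 0.13.

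**Figure D4:**
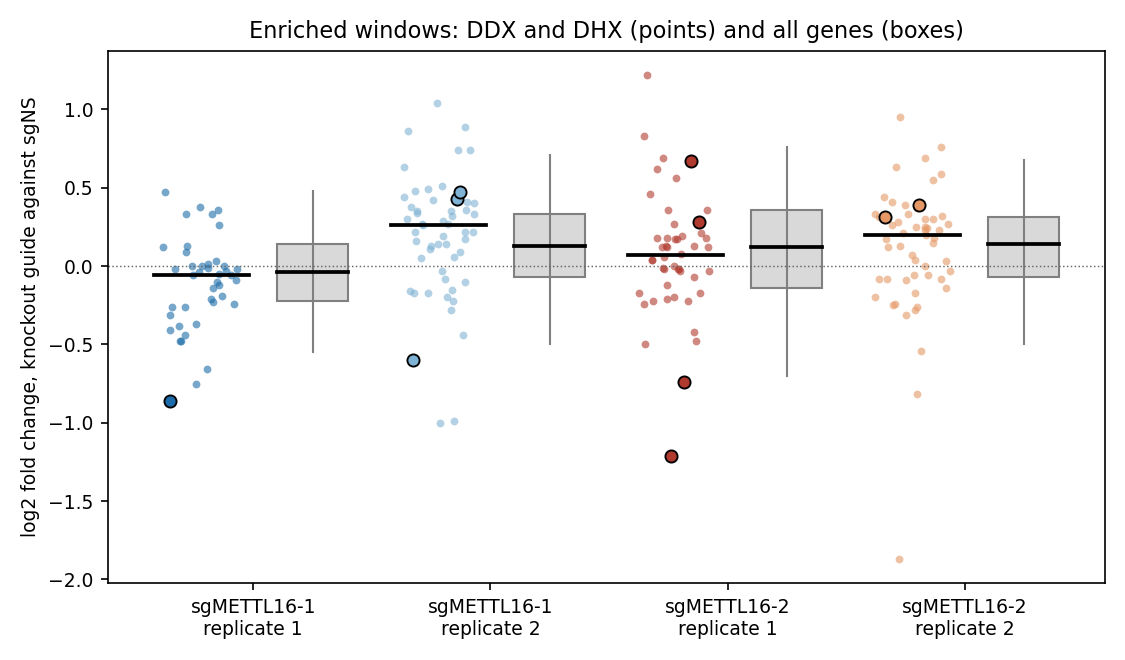
Deposited log2 fold changes (knockout guide against sgNS) of enriched DDX and DHX windows as points, with called windows outlined in black and the median as a line, beside boxes of all enriched windows (median, quartiles, and lines from percentile 5 to percentile 95) in each table. Medians of the helicases were -0.06, 0.26, 0.07 and 0.20, inside the boxes of all genes in the 4 tables.

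Among helicases without a call, some enriched windows had large values that did not pass. DHX33, of ribosome biogenesis, had 0.83 (FDR = 0.423) and 0.95 (FDR = 0.438) per the authors' deposited tables of sgMETTL16-2, where it was enriched 2.94-fold and 2.64-fold. DHX37, which acts in small subunit assembly, had 0.76 (FDR = 0.0692) in sgMETTL16-2 replicate 2 and -0.48 in sgMETTL16-1 replicate 1 for the window from 124964621 to 124966835 on chromosome 12 per the authors' deposited tables. DHX57 had -1.0 and -1.87 in its strongly enriched window per the authors' deposited tables of replicate 2, with FDR of 0.658 and 0.65. DDX11 had 0.74 with sgMETTL16-1 replicate 2 and 1.22 and 0.63 with sgMETTL16-2 at its 3′ end per the authors' deposited tables. DDX19A had 1.04 (FDR = 0.418) in sgMETTL16-1 replicate 2 and 0.38, -0.12 and 0.03 in the other tables, per the authors' deposited tables. Antiviral members had medians over all their windows between -0.68, in replicate 1 of sgMETTL16-2, and 0.00, with no call.

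The list of RNA helicases outside the DDX and DHX names held 21 names, and 20 had windows. SKIV2L2 and MTREX on it are names of the same gene. These helicases had 1 lower call in each table and 1 higher call in all. The calls were 0.578%, 0.685%, 1.35% and 0.758% of their 173, 146, 148 and 132 windows. Of all windows 0.355%, 0.749%, 1.84% and 0.734% were called. The lower call was that of EIF4A1, of translation initiation, whose window the read-through gene SENP3-EIF4A1 shares, between -0.53 and -0.74 per the authors' deposited tables. The higher call was that of SKIV2L2, a helicase of the nuclear exosome, at 0.98 (FDR = 0.0049) in sgMETTL16-2 replicate 1, while replicate 2 of that guide gave -0.17 for its enriched window per the authors' deposited tables. No DDX or DHX window was called in 3 or more tables. Of the 44 helicase windows matched in all 4 tables, only DDX24, DDX42 and DHX30 windows, 3 in all, were called in any table, and 14, on 12 genes, were enriched in all 4.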

How the data were processed

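Input and IP reads were mapped to GRCh38 by STAR, per the submitters' processing notes, with no version stated. The sources used here do not name the peak caller, its annotation or any pooling. The authors deposited, per the file headers, a log2 fold change of the difference, a fold enrichment (ratio) of IP over input, and p-values and FDRs as log10 scores. No value per library was used. Markers of other cell types are not reported here. In windows with an FDR of IP over input under 1e-10 the largest deposited p was 0.514 to 0.537, as for a test with 1 side.

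Numbers of the tables were taken as replicate numbers. Windows of different tables were matched 1 to 1 on strand, gene name and an overlap of at least 0.5 of the bases of each. Gene ends and transcript starts came from RefSeq, GRCh38.p14, for 54 of the 55 names. The rule for naming took windows that both tables of 1 guide called or at least 3 tables called, up to 4 lower and 4 higher calls of each table by fold change, the 10 windows with the highest mean enrichment among those enriched in all 4 tables, and up to 4 genes of each role list by their number of enriched windows. DDX3X, DDX5, DDX19B, DDX31, DDX55, DHX33, DHX37 and DHX57 fall outside it and were chosen after their values were seen. The members and lists were chosen with earlier results of these data known. FDRs are those of the authors over each whole table. Coordinates were deposited from base 0 and are printed from base 1. Alternatives were a stricter FDR, a minimum fold change or enrichment, enriched windows alone, other overlaps, a mean per gene, a two-sided p, a shift of each table together with a two-sided p, and leaving out a replicate number. Python 3.11.15, pandas 2.3.3, numpy 2.4.6, scipy 1.17.1 and matplotlib 3.10.9 were used, and the steps were tested on simulated data.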

Additional observations from a re-analysis of the deposited data

How the results depend on the processing

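No paired analysis was possible because the deposited tables hold comparisons and no value per library. Calls are given for sgMETTL16-1 replicates 1 and 2, then sgMETTL16-2 replicates 1 and 2, where the counts were 1, 1, 6 and 0 lower and 0, 2, 2 and 2 higher. With an FDR under 0.01 they were 1, 0, 2 and 0 lower and 0, 2, 1 and 0 higher. With a minimum size of 0.5 for the log2 fold change, the higher calls were 0, 0, 1 and 0. Among enriched windows alone the lower calls were 1, 1, 2 and 0. With enrichment required to reach 2-fold there were 0 lower calls in all 4 tables and 0, 1, 1 and 0 higher. With a two-sided p the counts were 1, 0, 2 and 0 lower and 0, 2, 1 and 0 higher. After subtracting from each table the median over its enriched windows, combined with a two-sided p, the higher calls were 1, 1, 0 and 0. The higher call of sgMETTL16-1 replicate 1 was on DDX39A, which was called lower in replicate 2 of that guide. Of the 14 called windows 6 kept their call with the two-sided p and 8 with both the subtraction and the two-sided p, where the standard error came from the deposited p. DDX18 and DHX15 kept their calls under both, as did DDX42 with sgMETTL16-1.

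Calls in both tables of a guide were 0 in either direction at every overlap tried, at an FDR of 0.01, in enriched windows alone, with the two-sided p alone and together with that subtraction. Without replicate 1 or 2, the single table left gave 1 lower call and 0 to 2 higher calls with sgMETTL16-1, and 0 to 6 lower and 2 higher calls with sgMETTL16-2. Calls with both guides were 0 to 1 lower and 0 to 1 higher when 1 replicate number was left out, DDX18 in replicate 1 and DDX24 in replicate 2. The median log2 fold change moved to 0.26, 0.07 and 0.20 in enriched windows of sgMETTL16-1 replicate 2 and of sgMETTL16-2, to -0.06, -0.16 and -0.13 after the subtraction, and to -0.08 and -0.14 in the replicate 1 tables with a mean per gene first. With enrichment required to reach 2-fold, enriched windows numbered 8, 20, 15 and 17. The cause of these changes was not tested, and depth per library, which limits every value, is unknown.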
